A study of Mus musculus with 107 samples.

Results

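The 9 genes described here are the TGF-beta ligands Tgfb1, Tgfb2 and Tgfb3, the receptors Tgfbr1, Tgfbr2 and Tgfbr3, the latency protein gene Ltbp1, the signal transducer Smad3 and the feedback inhibitor Smad7. They were chosen by symbol and matched to mouse Entrez identifiers, and all 9 were found among the 27179 genes counted. RNA bound to HA-tagged ribosomes (RiboTag, an HA tag on the ribosomal protein Rpl22) was sequenced in bulk in libraries of 23 conditions. The study followed mouse embryonic stem cells (ESC) as they became neural progenitor cells (NPC), differentiated in culture under defined factors or serum, and were grafted into spinal cord. Levels are given as CPM, a gene's counts scaled to a common library total, and as FPKM, CPM per kilobase of exon, where genes are compared with each other.

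All cultured and grafted cells came from 1 female C57BL/6 ESC line carrying the cre-excised RiboTag allele on both chromosomes, obtained by crossing to SOX2-cre, so that every cell of the line bears the tag. NPC were kept in EGF and FGF at 100 ng/ml and were profiled at passage (P) 5, 15 and 30 of the first derivation (4 libraries each) and at P15 of derivation 2 (6 libraries) and derivation 3 (4 libraries). Spontaneous differentiation (SPONT) was 4 days with EGF and FGF at 1 ng/ml, and the other differentiating cultures added to that medium CNTF at 100 ng/ml, IGF-1 at 100 ng/ml, fetal bovine serum (FBS) at 1, 5, 10 or 20%, or 5% FBS together with CNTF (4 libraries each). Pipetted NPC had passed through a grafting pipette in medium, in a diblock copolypeptide hydrogel (DCH), or in DCH with 4 h of incubation (5 libraries each). Grafts were NPC in hydrogel recovered from the spinal cord of young adult C57BL/6 mice of both sexes (5 libraries each). Graft hosts had an uninjured cord sampled at 14 days, a single forceps crush (SCI) at thoracic level 10 sampled at 5 or 14 days, or a double crush (dSCI) sampled at 14 days, and injured cord received its graft 2 days after injury. The labels give the days of graft recovery without a starting point, and the study's text counts them from grafting in most places and elsewhere, for the 14-day SCI grafts, from injury. Host astrocyte libraries came from other mice, in which a Gfap-Cre transgene switched on RiboTag, and were taken from healthy cord (9 libraries) or 14 days after SCI (5 libraries). That label marks cells in which the Gfap promoter has been active.

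TGF-beta ligands are made as dimers held latent by their own propeptide, which LTBP proteins tether to the extracellular matrix until integrins or proteases release the ligand. Free ligand brings together the type II receptor (Tgfbr2) and the type I kinase receptor (Tgfbr1), with betaglycan (Tgfbr3) as a co-receptor that presents the ligand and is most needed for Tgfb2. The type I receptor phosphorylates Smad2 and Smad3, which enter the nucleus with Smad4, and Smad7, itself a target gene, blocks the receptor and marks it for degradation. In the injured cord the pathway is known for its part in glial and fibrotic scar formation, and serum is a common source of TGF-beta in culture.

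Stretches next to annotated start sites of 3 members are shown because their RNA behaved differently in culture and in the cord: Tgfb1, which was low in culture and high in injured cord, Tgfb2, which hardly moved with serum, and Tgfbr2, which rose with it. They are the 250 bases before the start site given by RefSeq on GRCm38.p6, 5′ to 3′ on the strand of the gene, with matches to the SMAD box CAGAC in capitals. The start site used for Tgfb2 is an internal one, so its window lies inside the outer bounds of the gene given below, while the windows of Tgfb1 and Tgfbr2 end where those genes begin.
Tgfb1, chr7:25686752-25687001, plus strand: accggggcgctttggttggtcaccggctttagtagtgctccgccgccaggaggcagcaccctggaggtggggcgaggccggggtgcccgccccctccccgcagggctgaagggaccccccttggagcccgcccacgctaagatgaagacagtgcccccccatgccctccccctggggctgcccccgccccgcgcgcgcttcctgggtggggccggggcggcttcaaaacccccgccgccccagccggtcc
Tgfb2, chr1:186705990-186706239, minus strand: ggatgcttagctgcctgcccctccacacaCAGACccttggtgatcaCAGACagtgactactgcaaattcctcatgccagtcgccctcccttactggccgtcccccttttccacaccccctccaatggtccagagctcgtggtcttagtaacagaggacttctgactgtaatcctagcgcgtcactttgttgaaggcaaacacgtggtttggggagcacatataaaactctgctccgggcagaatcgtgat
Tgfbr2, chr9:116175364-116175613, minus strand: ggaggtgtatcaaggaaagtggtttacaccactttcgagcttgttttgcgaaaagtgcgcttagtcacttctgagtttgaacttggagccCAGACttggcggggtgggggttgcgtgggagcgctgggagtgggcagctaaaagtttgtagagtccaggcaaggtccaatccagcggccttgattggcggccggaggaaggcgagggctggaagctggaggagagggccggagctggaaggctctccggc
CAGAC was searched on both strands, and it stood 2 times in the Tgfb2 window, 1 time in that of Tgfbr2 and not in that of Tgfb1. Of 32851 promoter windows of this length in RefSeq, 42.2% hold it. The AP-1 motif TGANTCA, held by 6.75% of all windows, and the TEAD motif GGAATG, held by 12.6%, were in none of the 3. Entries were present for 6 of the 9 genes, the other 3 being Tgfb3, Tgfbr3 and Smad7.

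On GRCm38 the genes lie at chr7:25687002-25705077 (Tgfb1), chr1:186622787-186709697 (Tgfb2), chr12:86056743-86079041 (Tgfb3), chr4:47353222-47414926 (Tgfbr1), chr9:116087695-116175363 (Tgfbr2), chr5:107106567-107289629 (Tgfbr3), chr17:75005480-75392512 (Ltbp1), chr9:63646766-63757994 (Smad3) and chr18:75367365-75395935 (Smad7). Reads were counted without strand, and opposite-strand genes share 2.14% of the exon bases of Tgfb2 and 4.82% and 7.6% of those of Tgfb3, whose reads cannot be told apart there. A gene on the same strand shares 4.54% of those of Tgfbr3. Library totals ranged from 30473157 to 147764968 counts in the 96 paired-read libraries and from 12286240 to 18085106 in the 11 single-read ones, which are the NPC of derivation 2 and the 5-day grafts. The summed CPM of 5 ESC genes was 2386 to 2503 in ESC and at most 1.91 in NPC. It was 99.4 to 132.4 in healthy host libraries, where Tdgf1 alone was at 99.0 to 131.7 CPM and Pou5f1, Zfp42 and Dppa4 were at 0. The sum of 5 NPC genes did not set NPC apart from differentiating cells, at 2252 to 2505 in NPC P15 and 2320 to 3074 in SPONT, and 4 of the 5 rose in SPONT. That of 10 astrocyte genes was 60510 to 67270 in healthy host libraries, 13390 to 17190 in SPONT and 1243 to 1255 in NPC P15. The summed CPM of 15 myeloid genes, here called the myeloid sum, was 24.9 to 159.5 in the cultures and 57.3 to 91.2 in healthy host libraries. It was 317 to 2323 in grafts of uninjured cord, 818 to 2640 in 14-day SCI grafts, 1541 to 15100 in dSCI grafts and 455 to 3095 in host SCI libraries. Among the 5-day grafts 4 libraries lay between 1076 and 1803 and replicate 4 stood apart at 21570. Results in the cord are therefore also given without that library, without dSCI replicate 4 (15100) and without host SCI replicate 2 (3095).

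**Figure D1:**
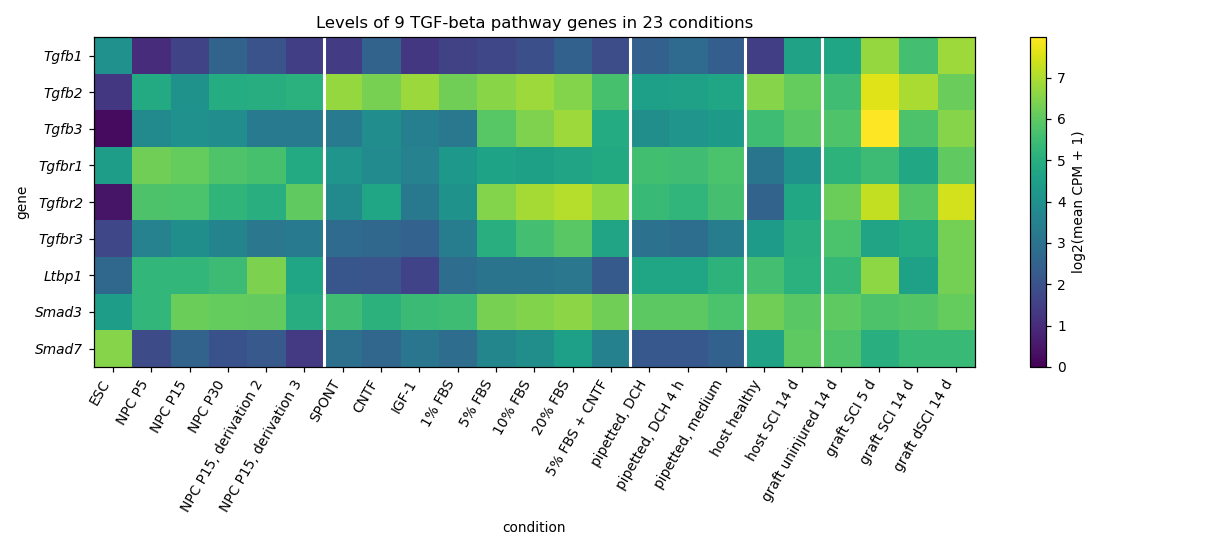
Mean level of each of the 9 genes (rows) in each of the 23 conditions (columns), as colour on the scale log2(mean CPM + 1), with white lines between NPC and ESC, differentiating cultures, pipetted NPC, host astrocytes and grafts. Tgfb3 and Tgfbr2 are darkest in ESC (0.187 and 0.378 CPM), Smad7 is brightest there (90.8 CPM), and Tgfb1 is bright in the injured cord and dark in most cultures.

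The 3 ligands had different ranges over the 23 conditions. Tgfb1, the form known best from inflammation and scarring, was at 15.4 ± 2.1 CPM (SD, n = 4) in ESC and between 1.00 and 5.87 CPM in the means of all 16 other cultured conditions. Its order was led by dSCI grafts (110 ± 34 CPM, n = 5), 5-day SCI grafts (104 ± 49), 14-day SCI grafts (47.3 ± 15), grafts of uninjured cord (25.3 ± 14) and host SCI (23.4 ± 12), and each of these overlapped the next in range. Tgfb2, the form known from developing neural tissue, was at 1.47 ± 0.69 CPM in ESC, 16.1 to 32.9 CPM in the 5 NPC groups and 75.6 to 111 CPM in differentiating cultures other than 5% FBS with CNTF, where it was 49.3 ± 0.94 CPM. Its highest means were in 5-day SCI grafts (191 ± 75 CPM) and 14-day SCI grafts (123 ± 41 CPM), whose ranges overlapped. Tgfb3, which is expressed by many mesenchymal cells, had the widest range of the 9, from 0.187 ± 0.17 CPM in ESC to 251 ± 178 CPM in 5-day SCI grafts. Between those lay NPC at 8.86 to 15.2 CPM, SPONT at 8.64 ± 0.56, 20% FBS at 112 ± 4.0, healthy host at 44.3 ± 6.1 and host SCI at 60.7 ± 8.2 CPM.

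Receptor levels shifted between type I and type II with the state of the cells. Tgfbr1, the type I kinase, had its highest mean in NPC P5 (74.3 ± 3.3 CPM), above and apart from NPC P15 (67.3 ± 3.2), and its lowest in healthy host astrocytes (7.53 ± 1.8, n = 9). Tgfbr2, the ligand-binding type II kinase, was at 0.378 ± 0.28 CPM in ESC, 31.3 to 64.5 CPM in NPC, 13.0 ± 2.8 in SPONT, 4.80 ± 0.93 in healthy host and 171 ± 49 CPM in dSCI grafts. Tgfbr3, betaglycan, ran from 2.28 ± 0.84 CPM in ESC to 78.2 ± 41 CPM in dSCI grafts, and 20% FBS came next to these at 59.5 ± 2.4 CPM with an overlapping range. Compared per length, ESC had 3.26 ± 0.29 FPKM of Tgfbr1 beside 0.0461 ± 0.034 FPKM of Tgfbr2. In cultures with 20% FBS the order was the other way, with 3.75 ± 0.3 FPKM of Tgfbr1 and 16.4 ± 0.87 FPKM of Tgfbr2.

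Ltbp1, which stores latent TGF-beta in matrix, was high in NPC (24.5 to 82.7 CPM over the 5 groups), low in all 8 differentiating conditions (2.04 to 7.91 CPM) and high again in grafts and hosts (22.7 to 97.9 CPM). Smad3, the transducer, moved least, between 20.6 ± 2.8 CPM in ESC and 95.4 ± 8.6 CPM in 20% FBS, a 4.62-fold range, and 21 of the 22 pairs of conditions next to each other in its order overlapped. Smad7, the inhibitor, was highest in ESC (90.8 ± 4.8 CPM), apart from every other condition, was 1.56 to 4.78 CPM in NPC and 3.61 to 4.56 CPM in pipetted NPC, and lay at 23.03 to 63.2 CPM in hosts and grafts. Over the 9 genes, 176 of 198 neighbouring pairs in the orders overlapped in range. The 22 steps that did not included, at the bottom, those for Tgfb3 (1% FBS above ESC), Tgfbr2 (healthy host above ESC), Tgfbr3 (IGF-1 above ESC) and Smad3 (NPC of derivation 3 above ESC), and for Ltbp1 that between the 14-day SCI grafts and 20% FBS. Tgfb1 had steps on both sides of ESC, below host SCI and above pipetted NPC. Per length, Smad7 was the leading member in ESC (20.1 ± 1.1 FPKM), Tgfb2 in SPONT (18.1 ± 2.4) and healthy host (15.6 ± 0.93), and Tgfb3 in 20% FBS (33.1 ± 1.2) and in 5-day SCI grafts (74.2 ± 52.5 FPKM).

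Patterns were compared with 14157 genes by Pearson's r of mean log2(CPM + 1) over the 23 conditions, given as a description since conditions share cells and libraries. The likest gene to Tgfb1 was Blnk (r = 0.964), followed by Arl11 and Rac2, genes known from blood cells. Tgfb3 was likest to Pam (0.946) and Cdh11 (0.929), Tgfbr2 to Bicc1 (0.947) and Fam114a1 (0.945), and Tgfbr3 to Rgmb (0.959) and Dab2 (0.936). Tgfb2 was likest to Atraid (0.941), Tgfbr1 to Zbed6 (0.932), Ltbp1 to Plagl1 (0.903), Smad3 to Ntrk3 (0.866) and Smad7 to Wscd2 (0.952). Among the members, r ran from -0.406 for Tgfb2 with Tgfbr1 to 0.879 for Tgfb3 with Tgfbr3.

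The make-up of the group differed between NPC P15 and SPONT cultures, which had EGF and FGF at 1 rather than 100 ng/ml. Compared with NPC P15, SPONT cultures had more Tgfb2 and less of Tgfb3, all 3 receptors, Ltbp1 and Smad3, so 7 of 9 members passed the test (adjusted p below 0.01 over all genes) in a comparison in which 57.2% of 14852 genes did. Tgfb2 was 16.2, 15.7, 15.2 and 17.1 CPM in NPC P15 and 121, 112, 92.9 and 93.0 CPM in SPONT. No SPONT culture came near an NPC culture, and the log2 fold change (log2FC) was 2.83 ± 0.11 (SE, adjusted p = 4.5e-09). Ltbp1 was 36.5, 32.2, 42.1 and 42.4 CPM in NPC P15 and 2.28, 2.93, 4.69 and 3.68 CPM in SPONT. Its log2FC of -3.37 ± 0.22 (adjusted p = 1.5e-07) was the lowest of the 9. Tgfbr1 fell by 1.88, Tgfbr2 by 1.87, Tgfbr3 by 1.19, Tgfb3 by 0.68 and Smad3 by 0.55 on the log2 scale. Tgfb1 (log2FC -0.23, adjusted p = 0.65) and Smad7 (0.61, adjusted p = 0.024) did not pass. The direction for Smad3 rests on the reference: against derivation 3, whose Smad3 was 30.0 ± 3.4 CPM beside 72.0 ± 8.9 CPM in derivation 1, its log2FC was 0.65 (adjusted p = 0.00028), while that of Tgfb3 was 0.01 and that of Tgfbr3 -0.49, both not called, Smad7 was called at 2.16, and those of Tgfb2, Tgfbr1, Tgfbr2 and Ltbp1 stayed past the threshold.

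Serum raised Tgfb3, Tgfbr2 and Tgfbr3 together from 5% upward, with smaller rises of Smad3, Smad7 and Ltbp1, and at the higher doses of Tgfb1. Against SPONT, 1% FBS called 0 of 9 members by edgeR's quasi-likelihood test, with 8.78% of 14938 genes called. At an unadjusted p below 0.05 there were 4961 such genes, and DESeq2 called 1 member, Ltbp1 (log2FC 0.88). At 5% FBS 6 of 9 members rose (34.1% of 15179 genes called), at 10% FBS 7 (45.0% of 15280) and at 20% FBS 7 (55.5% of 15358). The median log2FC of the 9 was 0.12, 0.83, 1.10 and 1.40 at 1, 5, 10 and 20%, where that of all genes tested lay between -0.03 and 0.00. All 4 comparisons share the SPONT libraries.

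Tgfb3 was 8.04, 9.39, 8.51 and 8.64 CPM in SPONT and 7.78, 9.16, 8.01 and 7.29 CPM in 1% FBS. At 5% FBS it was 64.6, 39.1, 64.2 and 65.9 CPM, at 10% FBS 79.4, 60.7, 105 and 99.4, and at 20% FBS 110.5, 115, 115 and 106.7 CPM. The 1% cultures overlapped SPONT, every culture at 5% or more lay above all of them, and the log2FC against SPONT was 2.76 ± 0.17, 3.33 ± 0.17 and 3.65 ± 0.085 at 5, 10 and 20% (adjusted p = 9.3e-07, 1.5e-07 and 1e-10). Tgfbr2 was 13.2, 8.96, 15.4 and 14.3 CPM in SPONT, 18.2, 17.3, 14.6 and 14.2 in 1% FBS, 80.0, 65.1, 92.55 and 118.5 in 5% FBS, 102.5, 99.2, 124 and 154 in 10% FBS and 137, 135, 141 and 124 CPM in 20% FBS. Again the step lay between 1 and 5%, and the log2FC was 2.79 ± 0.21, 3.22 ± 0.19 and 3.34 ± 0.14 at the 3 higher doses. Tgfbr3 was 5.10 to 6.89 CPM in SPONT, 6.36 to 12.7 in 1% FBS, 27.2 to 37.2 in 5% FBS, 42.5 to 51.6 in 10% FBS and 56.1 to 61.5 CPM in 20% FBS, and no range from 5% upward overlapped the next.

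The transducer and its inhibitor moved less. Smad3 was 38.3 to 53.0 CPM in SPONT, 43.7 to 46.2 in 1% FBS and 82.9 to 102 CPM in 20% FBS, with log2FC 1.05 ± 0.11 (adjusted p = 5.9e-06). Smad7 was 4.97 to 8.52 CPM in SPONT, 9.73 to 13.9 in 5% FBS, 11.2 to 17.0 in 10% FBS and 19.8 to 22.9 CPM in 20% FBS, with log2FC 1.65 ± 0.15 at 20% (adjusted p = 2.2e-06). The log2FC of 0.81 for Smad7 at 5% was past the threshold in 5 of 8 fits that left out 1 library, with an adjusted p of 0.010 to 0.011 without SPONT replicate 3, SPONT replicate 4 or 5% FBS replicate 1. Ltbp1 rose by a like amount at each dose from 5% (log2FC 1.15, 1.12 and 1.18), yet stayed at 4.87 to 10.2 CPM, below the NPC level. At 5% its call was kept in 2 of 8 such fits, without SPONT replicate 3 or 5% FBS replicate 3, and the other fits had adjusted p from 0.010 to 0.027.

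Tgfb1 stayed low throughout serum exposure, at 1.67 to 2.21 CPM in 1% FBS and 3.01 to 5.94 CPM in 20% FBS. Its log2FC was 0.79 ± 0.20 at 10% (adjusted p = 0.0075, kept in 1 of 8 fits that left out a library, that without 10% FBS replicate 4, and between 0.011 and 0.021 in the others) and 1.40 ± 0.22 at 20% (adjusted p = 0.00019). Tgfb2 and Tgfbr1 passed at no dose. Tgfb2 had log2FC of -0.45, -0.16, 0.09 and -0.28 and Tgfbr1 of 0.12, 0.52, 0.40 and 0.51 at 1, 5, 10 and 20%. Fitted over the 16 serum cultures as a slope per 2-fold step of the serum percentage, 6 of 9 members rose (57.3% of 15874 genes called): Tgfb3 by 0.89 ± 0.077, Tgfbr2 by 0.73 ± 0.076, Tgfbr3 by 0.64 ± 0.047, Smad7 by 0.39 ± 0.030, Tgfb1 by 0.27 ± 0.053 and Smad3 by 0.25 ± 0.026 on the log2 scale. Slopes of Tgfb2 (0.08, adjusted p = 0.08), Tgfbr1 (0.09, 0.01) and Ltbp1 (0.07, 0.2) did not pass. That of Tgfbr1 passed in 5 of 16 fits that left out 1 library.

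**Figure D2:**
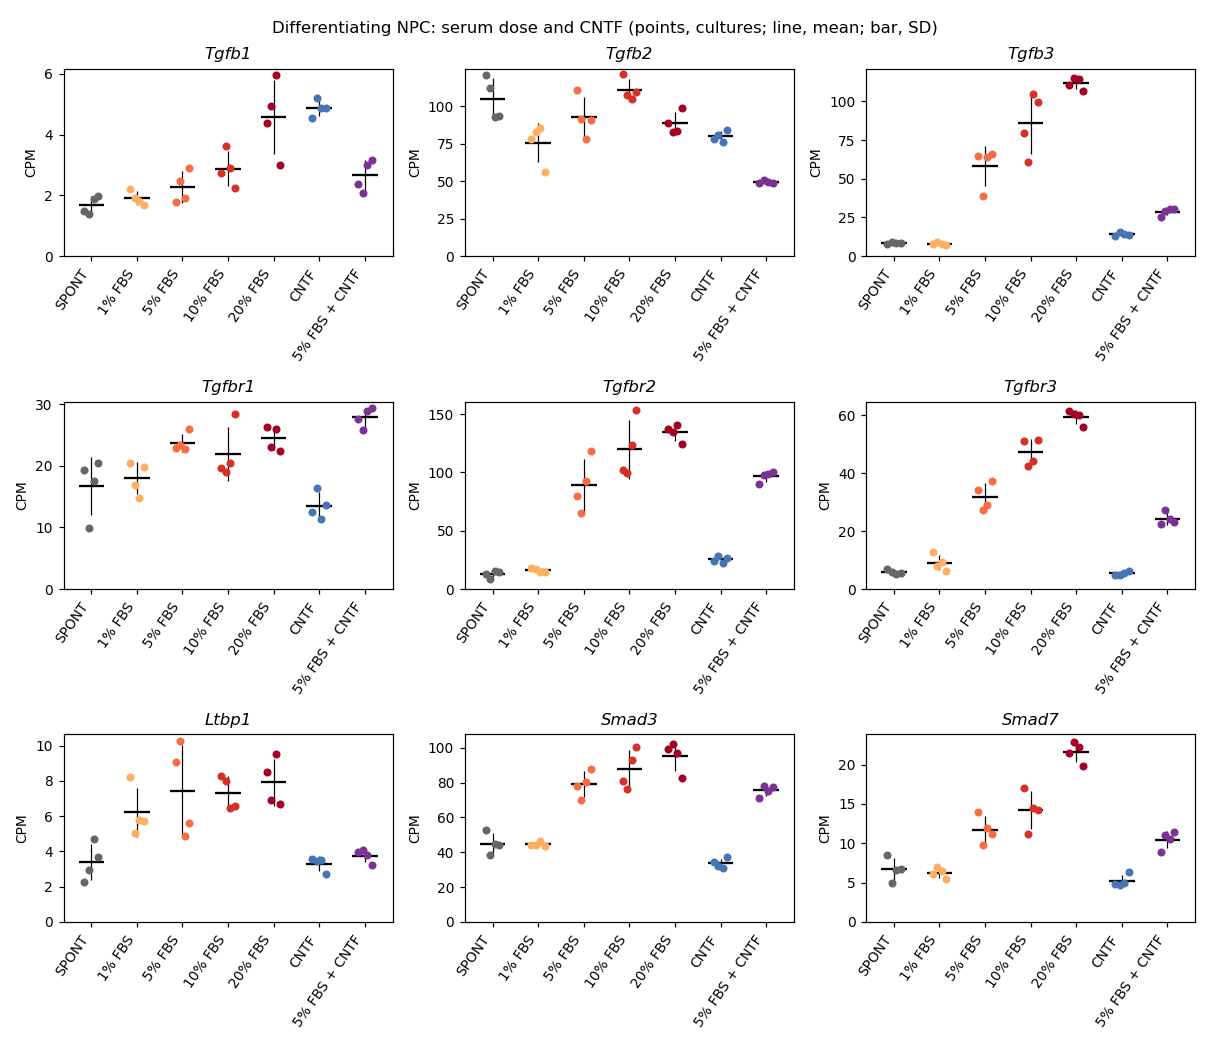
CPM of each member (1 panel each, vertical axis from 0) in SPONT, in 1, 5, 10 and 20% FBS, in CNTF and in 5% FBS with CNTF, 4 cultures a group as points with the mean (line) and SD (bar). The cultures of Tgfb3, Tgfbr2 and Tgfbr3 at 5% FBS or more all lie above those at 1%, while the 5% cultures of Tgfb2 overlap its 1% cultures.

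Other genes of the pathway were read from lists chosen with earlier results of these data known, so their counts are descriptions. The study itself names Acta2, Ccn2, Tagln and Thbs1 among the genes raised by serum in these cultures. Of 20 TGF-beta target genes, 12 rose at 5% FBS and 15 rose and 1 fell at 20%, with a median log2FC of 2.67 and 2.08. The leaders at 20% were the smooth muscle actin gene Acta2 (log2FC 10.65), the matricellular gene Ccn2 (9.51) and the contractile gene Tagln (8.85). At 1% FBS, where no member passed, 8 targets rose, led by Ccn2 (4.15), Acta2 (3.79) and Tagln (3.61), with Tgfb1i1 (-0.40) falling. Of 14 tested latency genes, 11 rose and 1 fell at 20%, led by Thbs1 (10.55), which can release latent ligand, by Ltbp2 (8.95) and by Dcn (7.22), a ligand-binding proteoglycan. Among 11 other receptors 6 rose, led by Acvrl1 (3.18) and Eng (2.52), and 2 fell, Bmpr1b (-1.86) and Acvr2b (-1.26). Of 18 other Smads and regulators 6 rose, led by the inhibitor Smad6 (5.52), and of 10 ligands of the wider family 8 rose, led by Bmp6 (7.14), and Inhbb fell (-0.87). Of 9 endothelial genes 4 could be tested at 20% and all 4 rose (median log2FC 4.98), and their sum went from 1.01 to 1.65 CPM in SPONT to 65.2 to 70.2 CPM. The summed CPM of 9 fibroblast and mural genes was higher alongside, from 21.4 to 28.5 in SPONT to 64.1 to 266.8 in 1% FBS and 425 to 538 in 20% FBS. That list shares Dcn with the latency genes and Col1a1 with the targets, and of 10 astrocyte genes 9 fell at 20%, as did 6 of 8 genes of oligodendrocytes and their precursors (OPC). The part of such cells in these results was not tested.

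CNTF, a cytokine that drives astrocyte formation through gp130 and STAT3, raised Tgfb1 with a lesser rise of Tgfbr2 and Tgfb3. Against SPONT 3 of 9 members passed (19.9% of 14879 genes called). Tgfb1 was 1.47, 1.38, 1.89 and 1.98 CPM in SPONT and 4.54, 5.19, 4.87 and 4.88 CPM with CNTF. These groups were apart, and the log2FC was 1.56 ± 0.15 (adjusted p = 2.1e-05), beside 0.99 ± 0.15 for Tgfbr2 and 0.72 ± 0.099 for Tgfb3. Of the 6 members that did not pass, Smad3 (-0.40, adjusted p = 0.012) and Tgfb2 (-0.37, adjusted p = 0.014) came nearest, and without SPONT replicate 2 the count was 6. Target genes that rose numbered 9 of 20, led by Junb (2.88), Tgfbi (2.44) and Ccn2 (1.61). IGF-1 called 0 of 9 members (6.55% of 14941 genes called by edgeR's quasi-likelihood test, 6588 at an unadjusted p below 0.05), with Tgfbr1 at -0.61 (adjusted p = 0.040) and Tgfbr2 at -0.57 (adjusted p = 0.023). DESeq2 called 1 of them, Tgfbr2, and without SPONT replicate 2 the count was 2.

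In the presence of 5% FBS, CNTF lowered 3 of 9 members (23.3% of 15272 genes called): Tgfb2 was 111, 91.7, 78.3 and 90.7 CPM with 5% FBS and 48.5, 50.6, 49.1 and 48.8 CPM with both (log2FC -0.99 ± 0.10, adjusted p = 0.00011). Tgfb3 was 64.6, 39.1, 64.2 and 65.9 CPM with 5% FBS and 25.3, 29.4, 30.2 and 30.5 CPM with both (log2FC -1.09 ± 0.15, adjusted p = 0.00046). For both genes every culture with CNTF lay below every culture without it. Ltbp1 fell by 1.06 on the log2 scale (adjusted p = 0.0061), a call kept in 3 of 8 fits that left out 1 library. It was lost without 5% FBS replicate 1 (adjusted p = 0.015) or any of the 4 libraries with both (0.016 to 0.023). Tgfb1 (log2FC 0.15) and Tgfbr2 (0.05) did not pass here.

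The difference between the effects of CNTF with and without serum was tested as an interaction term, and 4 of 9 members passed (22.9% of 15726 genes called). It was -1.42 ± 0.25 for Tgfb1, -0.63 ± 0.14 for Tgfb2, -1.82 ± 0.18 for Tgfb3 and -0.96 ± 0.22 for Tgfbr2, with adjusted p of 0.00045, 0.0029, 1.5e-06 and 0.0035. For Tgfb3 the direction of the effect turned, from 0.72 without serum to -1.09 with it. Of 20 target genes 11 fell and 1 rose with CNTF in serum, led by Col3a1 (-4.85) and Col1a1 (-3.61), and 14 of 20 had an interaction below 0 that passed. The fibroblast and mural sum was 148.7 to 158.3 CPM with CNTF, 151.8 to 590.1 with 5% FBS and 72.0 to 86.6 with both, and its part was not tested.

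Libraries of 14-day SCI grafts had more of all 3 ligands, betaglycan and Smad7 than NPC pipetted in DCH. Against NPC pipetted in DCH, 5 of 9 members rose in 14-day SCI grafts (51.6% of 15027 genes called), with a median log2FC of 2.18 where that of all genes was 0.15. Smad7 was 2.89, 3.81, 4.45, 4.69 and 2.19 CPM in pipetted NPC and 41.0, 43.7, 36.9, 30.1 and 48.7 CPM in grafts, with log2FC 3.82 ± 0.27 (adjusted p = 8e-08). Tgfb1 was 3.50, 3.69, 2.79, 6.98 and 5.10 CPM before and 50.1, 34.3, 48.5, 33.3 and 70.5 CPM after grafting (3.80 ± 0.34, adjusted p = 6.1e-07). Tgfb2 had log2FC 2.83 ± 0.22, Tgfbr3 2.40 ± 0.25 and Tgfb3 2.18 ± 0.26, and for all 5 genes the groups were apart. Tgfbr1 (-0.43), Tgfbr2 (0.82), Ltbp1 (0.26) and Smad3 (0.23) did not pass. The myeloid sum moved with this comparison, from 31.5 to 47.3 CPM before to 818 to 2640 CPM after grafting, and 14 of the 15 myeloid genes rose, as did all 7 tested fibroblast and mural genes, 9 of 10 astrocyte genes, 6 of 8 OPC and oligodendrocyte genes, 6 of 7 neuron genes and 5 of 9 endothelial genes. Their part in the result was not tested. In these bulk samples fewer cells of a type and less RNA per cell cannot be told apart.

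At 14 days the single crush set grafts apart from those of uninjured cord in Tgfb2 alone among the 9 (4.64% of 15813 genes called). Tgfb2 was 32.1, 53.9, 49.1, 50.0 and 39.0 CPM in uninjured cord and 142, 123, 98.0, 179 and 73.8 CPM after SCI. The lowest SCI graft lay above the highest uninjured one, and the log2FC was 1.72 ± 0.22 (adjusted p = 0.00059), a call kept in all 10 fits that left out 1 library. Tgfb1 was 21.5, 20.0, 6.88, 40.1 and 38.3 CPM in uninjured cord and 33.3 to 70.5 CPM after SCI (1.196 ± 0.41, adjusted p = 0.069), with overlapping groups. The other 7 had log2FC between -0.51 (Tgfbr3) and 0.20 (Tgfb3). By edgeR's quasi-likelihood test none of the 15 myeloid genes passed in this comparison (median log2FC 0.93, 5 at an unadjusted p below 0.05), nor did any of 9 fibroblast and mural genes (median -1.06) or of 8 OPC and oligodendrocyte genes (median -0.72). Of 7 neuron genes 2 fell (median -2.20), of 9 endothelial genes 1 fell (median -2.31) and of 10 astrocyte genes 2 rose (median 0.30). The neuron sum was 1187 to 4663 CPM in uninjured cord and 516 to 821 CPM after SCI, and the OPC and oligodendrocyte sum 11850 to 26190 and 4267 to 10410 CPM, so both sums were apart as Tgfb2 was. Their part in the result was not tested. In the SCI grafts Tgfb2 was lowest in replicate 5, the library with the highest myeloid sum of the group (2640 CPM). Of 20 target genes 2 rose, Cdkn2b (2.75) and Junb (1.49), and of the latency genes Ltbp2 (2.10).

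After the double crush Tgfb1, Tgfbr2 and Ltbp1 rose. Against uninjured cord 3 of 9 passed in dSCI grafts (4.19% of 15906 genes called), namely Tgfb1 (2.31 ± 0.40), Tgfbr2 (1.43 ± 0.25) and Ltbp1 (1.22 ± 0.21), each with adjusted p = 0.0039. Tgfb1 was 101, 127, 104, 156 and 63.0 CPM, above all uninjured grafts. Tgfbr2 was 217, 171, 186 and 89.3 CPM in dSCI replicates 1, 2, 3 and 5, and between 186 and 217 CPM in replicate 4, beside 60.4, 82.0, 40.0, 84.8 and 93.6 CPM in uninjured cord, where the lowest dSCI graft lay below the highest uninjured one. Ltbp1 was 123, 73.7, 84.6, 65.6 and 43.5 CPM beside 30.4, 34.7, 36.5, 47.4 and 43.4 CPM, again with 1 dSCI graft inside the uninjured range. Tgfb2 (0.93, adjusted p = 0.040), Tgfb3 (0.98, 0.019) and Tgfbr1 (1.06, 0.036) did not pass. All 3 calls were lost without uninjured replicate 1 or 2 or dSCI replicate 2 or 3 (adjusted p from 0.010 to 0.014) and kept without dSCI replicate 4, where the log2FC were 2.15, 1.38 and 1.28. The myeloid sum was 1541 to 15100 CPM in dSCI and 317 to 2323 CPM in uninjured grafts, the fibroblast and mural sum 3764 to 15470 and 1101 to 3262 CPM. Of 15 myeloid genes 3 rose (median log2FC 2.66), and 14 had an unadjusted p below 0.05 by edgeR's quasi-likelihood test. Of 9 fibroblast and mural genes 1 rose (median 1.07), while 2 OPC and oligodendrocyte genes and 1 neuron gene fell. The part of these cells in the result was not tested.

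Set against the single crush, dSCI grafts called 1 of 9, Ltbp1 (1.83% of 15790 genes called), with 22.01, 23.4, 13.8, 19.4 and 34.9 CPM after SCI and all 5 dSCI grafts above these (log2FC 1.67 ± 0.29, adjusted p = 0.0059). Leaving out single libraries kept this call in 2 of 10 fits, those without SCI replicate 5 or dSCI replicate 5, and the other 8 had adjusted p from 0.011 to 0.023, 0.012 without dSCI replicate 4. Tgfbr2 (1.48, adjusted p = 0.012), Tgfbr3 (1.32, 0.015) and Tgfb1 (1.11, 0.020) came near. Without SCI replicate 5 these 3 passed too, at 1.88, 1.53 and 1.40, as did Tgfbr1 (1.52, adjusted p = 0.0021), which made 5 of 9, and without dSCI replicate 5 Tgfbr2 joined Ltbp1 (1.57, 0.0094). Between dSCI and SCI 6 of 9 fibroblast and mural genes rose (median log2FC 2.50) and 4 of 9 endothelial genes (median 2.97), while 0 of 15 myeloid genes passed by edgeR's quasi-likelihood test (median 1.80), although all 15 had an unadjusted p below 0.05. The fibroblast and mural sum was 3764 to 15470 CPM in dSCI and 713 to 2302 CPM in SCI grafts, and the endothelial sum 86.0 to 804.8 and 27.4 to 86.6 CPM. Among the dSCI grafts Tgfb1 was highest in replicate 4, where the myeloid sum was highest too, and lowest in replicate 5, where it was lowest. The part of such cells in these results was not tested. Collagen genes led the 7 of 20 target genes that rose against uninjured cord, Col1a1 by 2.72 and Col3a1 by 2.35, and Ltbp2 (4.06) led the 4 latency genes.

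Ltbp1 was lower in 14-day than in 5-day SCI grafts. It was 114, 119, 155, 51.2 and 50.0 CPM at 5 days and 22.01, 23.4, 13.8, 19.4 and 34.9 CPM at 14 days, groups that did not overlap, with log2FC -1.89 ± 0.36 (adjusted p = 0.0049). It was the 1 member of 9 that passed (5.3% of 15314 genes called), and the call was kept in 3 of 10 fits that left out 1 library, those without SCI 14-day replicate 5 or 5-day replicate 4 or 5, with adjusted p from 0.013 to 0.019 in the others. Tgfb3 was 217, 348, 506, 89.1 and 94.6 CPM at 5 days and 99.8, 43.9, 41.2, 31.3 and 44.7 CPM at 14 days (log2FC -2.10 ± 0.46, adjusted p = 0.011). Without 5-day replicate 4 it passed, at -2.31 (adjusted p = 0.0022), and Ltbp1 was -2.05 (0.0014). Tgfb3 passed as well without 5-day replicate 5 (-2.31, 0.0054), and Tgfbr2 did without SCI 14-day replicate 5 (-1.56, 0.0078). Tgfbr1 was 112 CPM in 5-day replicate 4 and 17.7 to 33.1 CPM in the other 4 libraries of the 5-day group. Its log2FC turned from -0.55 to 0.22 without 5-day replicate 4. Of 20 target genes 9 fell, led by Acta2 (-3.10), Col1a1 (-2.51) and Tagln (-2.45). The 5-day libraries were single-read and the 14-day ones paired, so time and read type cannot be told apart. Of 9 fibroblast and mural genes 4 fell as well, while 3 of 8 OPC and oligodendrocyte genes and 2 of 10 astrocyte genes rose. By edgeR's quasi-likelihood test none of 15 myeloid genes passed (median log2FC -1.54, 2 at an unadjusted p below 0.05). Nor did any of 9 endothelial genes (median -1.26). The part of these cells in the result was not tested.

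**Figure D3:**
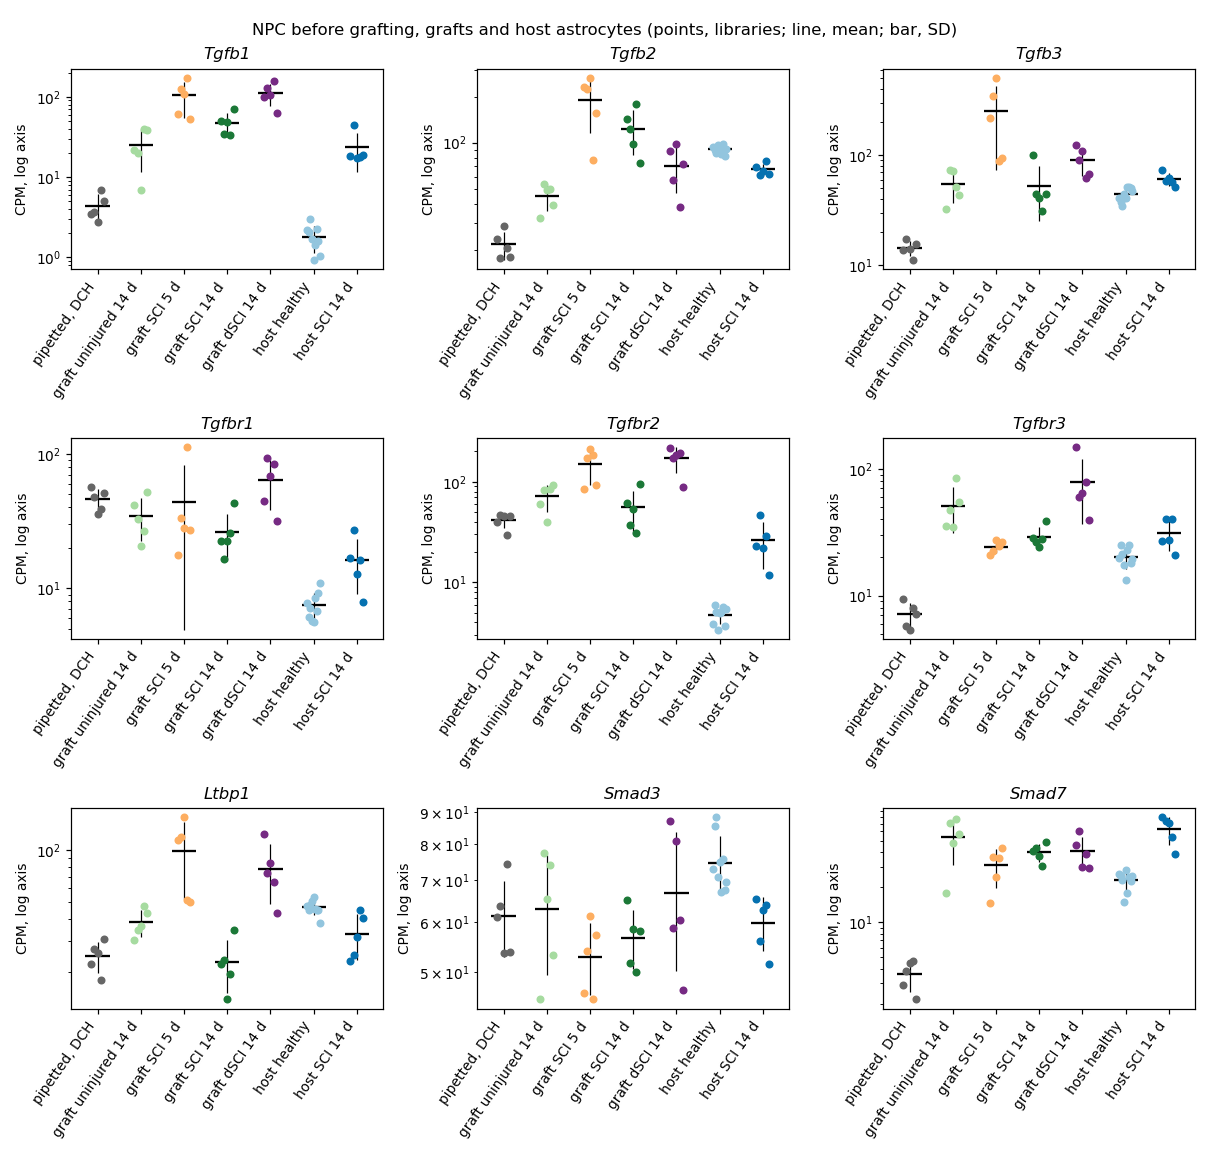
CPM of each member (1 panel each, log axis) in NPC pipetted in DCH, in the 4 kinds of graft and in healthy and injured host astrocytes, with libraries as points, the mean as a line and the SD as a bar. Pipetted NPC lie below every graft for Smad7 and, for Tgfb1, below all grafts but 1 of uninjured cord (6.88 CPM), and healthy host libraries lie below injured ones for Tgfb1 and Tgfbr2.

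In host astrocyte libraries Tgfb1, both signalling receptors and Smad7 rose after SCI while Tgfb2, Ltbp1 and Smad3 fell. At 14 days 7 of 9 passed against healthy cord (41.1% of 16886 genes called), 4 of them higher and 3 lower. Tgfb1 was 0.925 to 2.99 CPM (median 1.69) in the 9 healthy libraries and 18.3, 44.7, 17.3, 17.6 and 19.1 CPM after SCI (log2FC 3.53 ± 0.26, adjusted p = 6.3e-09). Tgfbr2 was 3.39 to 5.99 CPM (median 5.05) in healthy cord and 23.2, 47.1, 21.8, 29.1 and 11.95 CPM after SCI (2.28 ± 0.22, adjusted p = 1.3e-07). Smad7 was 15.0 to 28.2 CPM (median 24.7) and then 79.5, 73.2, 70.85, 54.1 and 38.2 CPM (1.27 ± 0.16, adjusted p = 2.6e-06). In all 3 the groups were apart. Tgfbr1 was 5.59 to 10.9 CPM and then 16.9, 27.1, 12.8, 16.1 and 7.91 CPM (0.90 ± 0.22, adjusted p = 0.0021), with 1 injured library inside the healthy range, and without host SCI replicate 2 it was 0.64 (adjusted p = 0.014).

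Tgfb2 went the other way, from 82.35 to 98.3 CPM in healthy cord to 69.4, 61.2, 65.3, 75.5 and 62.6 CPM after SCI (log2FC -0.62 ± 0.073, adjusted p = 1.7e-06). Ltbp1 fell by 0.68 and Smad3 by 0.50 on the log2 scale. With all groups in 1 fit, the calls of Tgfb2, Ltbp1 and Tgfbr1 were lost. Without host SCI replicate 2 the count was 6 of 9, and Tgfb1 was 3.17, Tgfbr2 1.97, Smad7 1.21 and Tgfb2 -0.58. Myeloid genes rose with injury here too, 14 of 15 of them, and their sum went from 57.3 to 91.2 CPM to 455 to 3095 CPM. Replicate 2 had the highest sum and the highest Tgfb1, Tgfbr1 and Tgfbr2 of its group. Host SCI libraries also had a fibroblast and mural sum of 381 to 666 CPM beside 49.9 to 84.3 CPM in healthy cord, and 7 of 10 astrocyte genes fell. Of 8 OPC and oligodendrocyte genes 6 rose, their sum being 5233 to 11130 CPM in healthy cord and 21430 to 36200 CPM after SCI, and 4 of 7 neuron genes fell. The part of these cells in the result was not tested. Of 20 target genes 17 rose and 1 fell, with a median log2FC of 1.84, among them the matrix genes Col1a1 (3.75) and Fn1 (3.65).

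**Figure D4:**
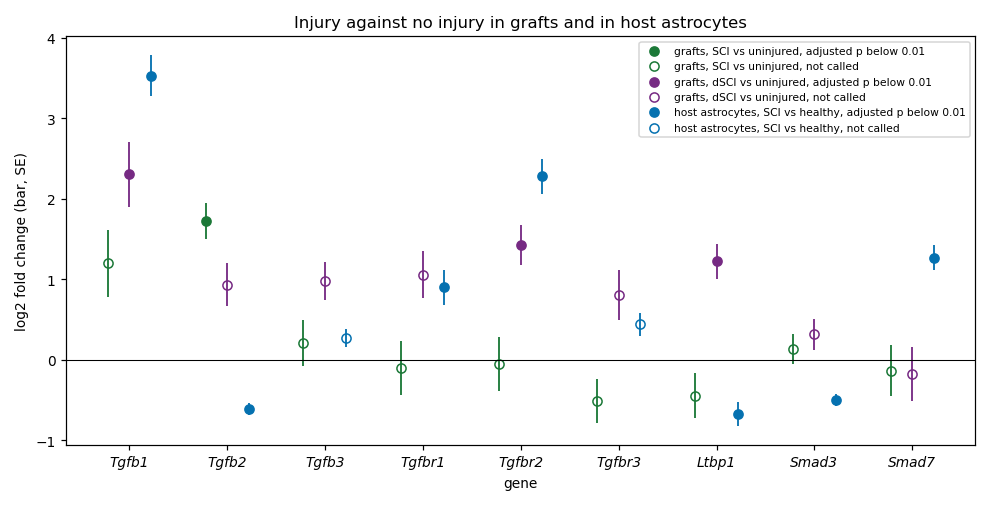
Log2 fold change with SE of each member after injury in grafts (SCI and dSCI against uninjured cord) and in host astrocyte libraries (SCI against healthy cord), filled where the adjusted p was below 0.01. Tgfb2 is 1.72 in SCI grafts and -0.62 in host libraries, and Tgfb1 and Tgfbr2 are 3.53 and 2.28 in host libraries beside 1.196 and -0.05 in SCI grafts.

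The effect of SCI was compared between grafts and host libraries by an interaction term, and 5 of 9 members passed (16.8% of 17536 genes called, all-gene median -0.13). Tgfb2 differed by 2.31 ± 0.21 (adjusted p = 7.2e-09), since it was higher after SCI in grafts and lower in host libraries. Tgfb1 differed by -2.37 ± 0.50 (adjusted p = 0.00075), Tgfbr2 by -2.36 ± 0.42 (0.00011) and Smad7 by -1.43 ± 0.35 (0.0028). Each of these rose in the host, while none passed in SCI against uninjured grafts (log2FC 1.196, -0.05 and -0.14). Smad3 (0.60, adjusted p = 0.0099), which fell in the host (-0.50) and was at 0.13 in grafts without passing, lost its call in 17 of 24 fits that left out 1 library, with adjusted p from 0.011 to 0.022, and the other 4 calls were kept in all 24. Without host SCI replicate 2 the interaction was 2.27 for Tgfb2, -2.01 for Tgfb1 and -2.06 for Tgfbr2. Tgfbr1 (-1.40) and Tgfbr3 (-1.20) passed as well without SCI graft replicate 5, and Tgfbr3 (-1.09) without uninjured graft replicate 3. Uninjured grafts had a myeloid sum of 317 to 2323 CPM where healthy host libraries had 57.3 to 91.2, and 12 of 15 myeloid genes had an interaction below 0 that passed. So did 8 of 9 fibroblast and mural genes (median -3.72), whose sum was 1101 to 3262 CPM in uninjured grafts and 49.9 to 84.3 CPM in healthy host libraries, 6 of 8 OPC and oligodendrocyte genes (median -2.46) and 3 of 9 endothelial genes, while 7 of 10 astrocyte genes had one above 0 (median 1.64). The part of these cells in the result was not tested. Grafted cells and host cells also differ in origin and in how the tag was switched on, which cannot be told apart here from the place of the cells in the cord.

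Set side by side, 14-day SCI grafts and host libraries differed in 1 of 9 members (14.6% of 16575 genes called). Tgfb2 was 73.8 to 179 CPM in grafts and 61.2 to 75.5 CPM in host libraries, with a small overlap (log2FC 0.82 ± 0.19, adjusted p = 0.006). That call was kept in 3 of 10 fits that left out 1 library, those without graft replicate 3, 4 or 5, and had an adjusted p of 0.012 to 0.021 without graft replicate 1 or 2 or any of the 5 host libraries. Tgfb1 (1.00, adjusted p = 0.038), Tgfbr2 (1.09, 0.052) and Smad7 (-0.68, 0.028) did not pass. Without host SCI replicate 2 the member called was Tgfb1 (1.33, adjusted p = 0.0044) and no longer Tgfb2 (0.76, 0.021), and without graft replicate 5 Smad7 passed beside Tgfb2 (-0.87, 0.0051). Of 10 astrocyte genes 7 were lower in grafts and 1 higher (median log2FC -1.38), with sums of 13250 to 27040 CPM beside 31720 to 53350 CPM in host libraries. Of 8 OPC and oligodendrocyte genes 4 were lower and 2 higher, 3 of 9 fibroblast and mural genes and 2 of 9 endothelial genes were higher, and 0 of 15 myeloid genes passed by edgeR's quasi-likelihood test, with 2 at an unadjusted p below 0.05. The part of these cells in the result was not tested. If graft days run from grafting, the 14-day grafts stood 2 days later after injury than the host libraries.

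**Figure D5:**
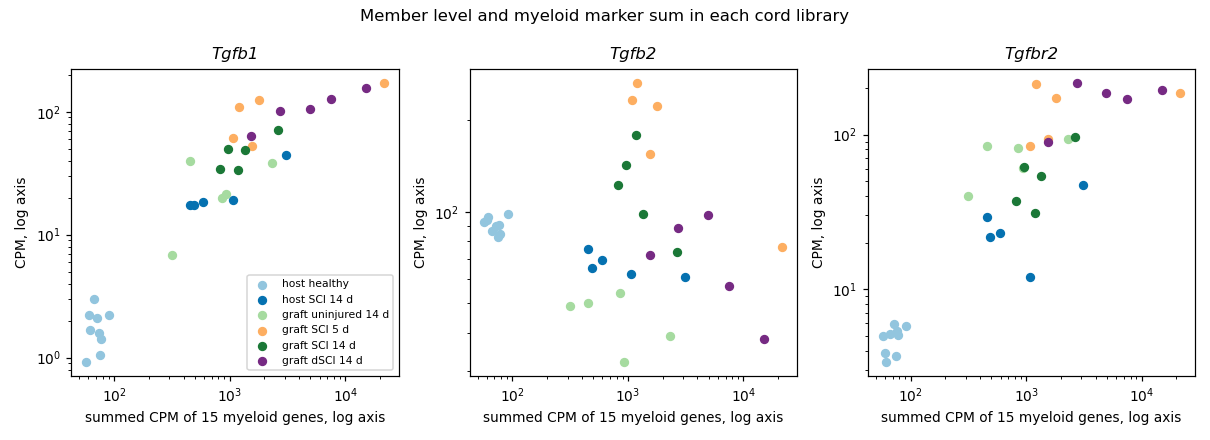
Level of Tgfb1, Tgfb2 and Tgfbr2 (CPM, log axis) against the summed CPM of 15 myeloid genes (log axis) in each of the 34 cord libraries, coloured by condition. Tgfb1 runs from 0.925 CPM at a myeloid sum of 57.3 in a healthy host library to 173 CPM at 21570 in 5-day graft replicate 4, while Tgfb2 has its highest value (266 CPM) at a sum of 1207.

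Library by library in the cord, Tgfb1 and Tgfb2 did not have their highest values in the same libraries. In 5-day graft replicate 4, at a myeloid sum of 21570 CPM, Tgfb1 was 173 CPM, the highest of the group, and Tgfb2 was 76.8 CPM and Tgfb3 89.1 CPM, the lowest. Among the dSCI grafts replicate 4, at 15100 CPM, had the most Tgfb1 (156 CPM) and the least Tgfb2 (38.2 CPM) and Tgfb3 (61.85 CPM). In uninjured grafts the order differed, since replicate 4 had the most Tgfb1 (40.1 CPM) at a sum of 456 CPM, beside 38.3 CPM in replicate 5 at 2323 CPM. By the fibroblast and mural sum, dSCI replicate 1 was highest (15470 CPM) and also had the most Ltbp1, Tgfbr2, Tgfbr3 and Tgfb3. Among the 5-day grafts it was replicate 3 (12450 CPM), with the most Ltbp1, Tgfbr2 and Tgfb3. In uninjured grafts and in either host group, the library with the most Ltbp1 was not that with the highest such sum. These are descriptions over few libraries, and the share of each cell type in the RNA was not tested.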

How the data were processed

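Ribosome-bound RNA, pulled down by the HA tag, was measured in 23 conditions. Per the submitters' processing notes and the study's methods, the authors trimmed reads with Trimmomatic, used HISAT2 for alignment to mm10 and featureCounts for counts per Entrez gene, and the deposited values are raw counts of 27179 genes in each library. The setting for strand was left at its default, and both mates of a pair were counted in paired libraries. Symbols were taken from RefSeq (25275 genes named) and exon lengths from the gene annotation of the mm10 build, which gave CPM and FPKM.

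Each comparison was fitted on the whole count table with edgeR 4.0.16 (R 4.3.3): genes were kept by filterByExpr with a minimum count of 10, libraries were scaled by TMM, and the quasi-likelihood F test was used with Benjamini-Hochberg adjustment over all genes tested. A gene was called at an adjusted p below 0.01. SE was the absolute log2 fold change divided by the square root of F. Interactions were terms of 1 model over 4 groups. Only the groups of a comparison entered its fit. Alternatives were DESeq2 1.42.0, its size factors in edgeR, no filter, a minimum count of 50, a block for replicate number, all groups in 1 fit, another reference group, counts of paired libraries halved, and leaving out each library in turn. The fits were tested on simulated data with known changes.

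Groups and replicate numbers came from the labels. The labels do not say that cultures of a group were separate derivations. The study describes its in vitro replicates as biological and independent, and gives 5 mice for each graft condition. P-values measure the spread between these samples. Where libraries are not known to be separate derivations or mice, that spread may be technical. No 2 libraries of a group agreed within sampling noise. Deviations of same-numbered libraries of compared groups had correlations from -0.182 to 0.358 over the 18 comparisons. In no comparison were all of them above 0.1, so no block was used. Against SPONT, all were above 0 at 5, 10 and 20% FBS, with means of 0.131, 0.161 and 0.0398. Cells before grafting were taken as NPC pipetted in DCH. The members and gene lists were chosen with earlier results of these data known. The text names all 9 members and, from each list, up to 3 called genes with the largest change in each direction that reached a group mean of 1 CPM. Some genes that this rule selects are not reported here. Depth was 12286240 to 147764968 counts a library, and counts near 0 are the least precise.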

Additional observations from a re-analysis of the deposited data

Results flagged for a closer look

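Of 207 sets of 4 to 9 libraries, 6 held a library far from the others, a smaller share than the 1 in 20 or so that chance gives. Tgfb1 was 44.74 CPM in host SCI replicate 2, the next being 19.1, and that library also had the highest myeloid sum of its group (3095 CPM). Tgfbr1 was 112.0 CPM in 5-day SCI graft replicate 4, the next being 33.13, at a myeloid sum of 21570 CPM. Tgfb3 was 99.82 CPM in 14-day SCI graft replicate 1 (next 44.73) and 39.09 CPM, the lowest, in 5% FBS replicate 2 (next 64.16). Tgfbr1 was 28.51 CPM in 10% FBS replicate 4 (next 20.51), and Ltbp1 was 2.694 CPM, the lowest, in CNTF replicate 4 (next 3.437).

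The effect of CNTF differed between cultures with and without 5% FBS, by a tested interaction term on the log2 scale, for Tgfb1 (-1.42), Tgfb2 (-0.63), Tgfb3 (-1.82) and Tgfbr2 (-0.96). The effect of SCI differed in the same way between grafts and host libraries for Tgfb1 (-2.37), Tgfb2 (2.31), Tgfbr2 (-2.36), Smad3 (0.6) and Smad7 (-1.43), where positive values mean a higher log2 fold change in grafts than in host libraries. The myeloid sum differed between these groups before injury too, at 317 to 2323 CPM in uninjured grafts and 57.3 to 91.2 CPM in healthy host libraries, as did other marker sums, and their part in the differences was not tested.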

How the results depend on the processing

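Changing the size factors changed no member call. Halving the counts of paired libraries was fitted only for SCI grafts at 14 against 5 days, and changed no member call there. DESeq2 lost none and gained 18 calls, dropping the filter gained 4, a minimum count of 50 gained 1, and fitting all groups together lost 4 and gained 16. By DESeq2 the members called numbered 1 for 1% FBS, 5 for CNTF, 1 for IGF-1, 6 for dSCI against uninjured grafts, 5 for dSCI against SCI grafts and 2 for SCI grafts at 14 against 5 days. With all groups in 1 fit they were 3, 5 and 2 for 1% FBS, CNTF and IGF-1, 3 for dSCI against SCI, 3 for 14 against 5 days, 4 for host SCI and 2 for grafts against host. Without the filter they were 3 for dSCI against SCI and 2 for 14 against 5 days. With the replicate block the count was 0 for dSCI against uninjured, dSCI against SCI, 14 against 5 days and grafts against host, 2 for the injury interaction, and within 1.5 times the main count in the other 13 comparisons. The block lost 11 member calls and gained 1, and same-numbered libraries are not known to be pairs. The cause of these changes was not tested.

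Leaving out 1 library gave 7 to 7 calls for SPONT, 0 to 0 for 1% FBS, 4 to 6 for 5%, 6 to 7 for 10%, 7 to 8 for 20%, 6 to 7 for the slope, 3 to 6 for CNTF, 0 to 2 for IGF-1, 2 to 4 for CNTF in serum, 4 to 5 for its interaction, 5 to 6 for grafts against pipetted NPC, 1 to 1 for SCI and 0 to 3 for dSCI against uninjured, 0 to 5 for dSCI against SCI, 0 to 2 for 14 against 5 days, 6 to 8 for host SCI, 0 to 2 for grafts against host and 4 to 6 for the injury interaction.

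Against NPC of derivation 3, SPONT log2FC was 0.01 for Tgfb3 and 0.65 for Smad3. Ltbp1 turned to 0.02 for CNTF with the block and to -0.24 for grafts against NPC pipetted in medium, and Smad3 at 1% FBS to -0.00 without the filter. No member that was called turned sign when 1 library was left out. Members not called that did had log2FC from -0.48 to 0.13 (Tgfb1, SPONT), -0.07 to 0.22 (Tgfbr1), -0.06 to 0.09 (Smad3) and -0.2 to 0.05 (Smad7) at 1% FBS, -0.17 to 0.18 (Ltbp1, CNTF), -0.1 to 0.04 (Smad3, IGF-1), -0.06 to 0.24 (Tgfbr2, CNTF in serum) and -0.03 to 0.22 (Smad7, its interaction). In the cord they were -0.06 to 0.4 (Ltbp1, grafts against pipetted NPC), -0.08 to 0.35 (Tgfb3), -0.47 to 0.12 (Tgfbr1), -0.46 to 0.1 (Tgfbr2) and -0.36 to 0.00 (Smad7) for SCI against uninjured, -0.17 to 0.11 (Smad7, dSCI against SCI), -0.88 to 0.22 (Tgfbr1, 14 against 5 days), and -0.36 to 0.08 (Tgfb3) and -0.12 to 0.34 (Ltbp1) for the injury interaction. Levels on TMM-scaled CPM moved by more than 1 SD in 34 of 207 groups.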
